A study of Mus musculus with 12 samples.

Results

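The 9 genes described here, *Abca1*, *Abcg1*, *Nr1h2*, *Nr1h3*, *Rxra*, *Srebf1*, *Srebf2*, *Mylip* and *Scd2*, regulate or carry out lipid metabolism under the liver X receptors (LXR) and the sterol regulatory element binding proteins (SREBP). They were found by gene name, and every peak that the deposited annotation assigned to 1 of the 9 genes was taken. This gave 60 of 26706 peaks of Rpb2, a core subunit of RNA polymerase II, in 8 of the 9 genes, and 80 of 55862 peaks of H3K27ac, the acetylation of histone H3 that marks active promoters and enhancers, in all 9 genes. The whole series named 17538 genes in either table.

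Microglia, the resident macrophages of the brain, were sorted from 2-mo-old C57BL/6J mice that were *Cx3cr1*-WT or Cx3cr1-deficient (KO), the latter with both copies of the fractalkine receptor gene replaced by *eGFP*, as germline alleles in littermates. Cells of 3 mice of the same sex were pooled for each sample and fixed. Each genotype had 1 pool labelled F (female) and 1 labelled M (male) per mark, so that every comparison had n = 2 pools per genotype and 4 libraries per mark. The 4 input samples among the 12 of the series were not used here. No mouse received a treatment that the labels name.

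LXRs are nuclear receptors that bind oxidized sterols and, as heterodimers with RXR, switch on genes that move cholesterol out of the cell. SREBPs are membrane-bound transcription factors that are cut and released when sterols run low and switch on the synthesis and uptake of sterols and fatty acids. In microglia, which engulf myelin and dying cells rich in cholesterol, both arms are known to handle the lipid taken up.

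Library totals ran from 11662185 to 44332626 reads for Rpb2, with 11.2 to 15.1% of the reads in peaks, and from 10395804 to 21134403 reads for H3K27ac. The H3K27ac library labelled WT female held 15.9% of its reads in peaks, against 61.1 to 65.3% in the other 3, so its enrichment was weak. The Rpb2 library labelled WT female went against its label, with 136 reads at Y-linked genes where the KO female library had 0. Both are therefore named as labelled, and some of the results that use them are also given without them. *Cx3cr1* itself held 2759, 2351, 2124 and 1893 Rpb2 reads per 1000000 reads in peaks (CPM, scaled by the TMM method) in WT female, WT male, KO female and KO male. The log2 difference of KO from WT was −0.35 with an SE of 0.08, and edgeR's quasi-likelihood test gave an adjusted p of 0.12 (Benjamini-Hochberg, over all genes). Which of its peaks the *eGFP* allele replaces was not mapped here, so these reads do not check the genotype. All 15 microglial markers had Rpb2 peaks, and their summed level ran from 15702 to 16572 CPM in WT and from 15409 to 16049 in KO. No marker of neurons, border macrophages and monocytes, or lymphocytes and neutrophils had an Rpb2 peak. Among astrocyte, oligodendrocyte and endothelial markers, 1 of 6, 2 of 8 and 3 of 5 had one, with summed levels of at most 210 CPM in any library. For H3K27ac, 5 of 6 border macrophage and monocyte markers had a peak, 3 of 5 neuronal, 3 of 6 lymphocyte and neutrophil, 4 of 6 astrocyte, 5 of 8 oligodendrocyte and 5 of 5 endothelial. Astrocyte markers reached the highest of these summed levels, 353 to 541 CPM in WT and 473 to 478 in KO, beside 6348 to 10853 and 8668 to 8898 for the microglial markers. Their part in the results was not tested.

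The sequences before the starts of *Abca1*, *Mylip* and *Srebf1* are shown because the first 2 genes held the densest Rpb2 starts of the group, and because *Srebf1* has 3 annotated starts that differed in Rpb2. Each line gives the 250 bases before a RefSeq start (GRCm38.p6), 5′ to 3′ on the strand of the gene. Capitals mark a direct repeat of AGGTCA with 4 bases between its arms (DR4, the site to which LXR and RXR bind) with at most 3 mismatches over its 12 fixed bases, the E-box CACGTG, or the TATA box TATAAA.
Abca1, chr4:53159896-53160145, minus strand: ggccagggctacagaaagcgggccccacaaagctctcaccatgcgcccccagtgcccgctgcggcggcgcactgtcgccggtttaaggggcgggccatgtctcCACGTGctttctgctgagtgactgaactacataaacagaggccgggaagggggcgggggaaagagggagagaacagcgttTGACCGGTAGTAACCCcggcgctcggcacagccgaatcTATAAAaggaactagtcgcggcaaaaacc
Mylip, chr13:45389492-45389741, plus strand: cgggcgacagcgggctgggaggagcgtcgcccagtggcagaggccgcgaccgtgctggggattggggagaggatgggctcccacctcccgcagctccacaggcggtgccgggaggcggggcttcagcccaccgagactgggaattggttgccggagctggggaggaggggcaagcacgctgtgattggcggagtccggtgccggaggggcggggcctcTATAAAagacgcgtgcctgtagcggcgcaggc
Srebf1, isoform d start, chr11:60222582-60222831, minus strand: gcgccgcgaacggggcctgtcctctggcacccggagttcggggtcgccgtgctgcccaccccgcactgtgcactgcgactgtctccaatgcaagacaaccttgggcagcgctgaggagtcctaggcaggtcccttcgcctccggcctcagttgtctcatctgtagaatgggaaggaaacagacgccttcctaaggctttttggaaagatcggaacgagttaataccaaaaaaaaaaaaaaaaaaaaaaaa
Srebf1, isoform a and b start, chr11:60220628-60220877, minus strand: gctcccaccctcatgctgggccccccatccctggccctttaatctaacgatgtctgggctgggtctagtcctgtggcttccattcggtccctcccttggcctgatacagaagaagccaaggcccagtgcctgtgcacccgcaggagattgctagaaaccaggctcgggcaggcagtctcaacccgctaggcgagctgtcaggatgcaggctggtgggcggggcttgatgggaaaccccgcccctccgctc
Srebf1, isoform c start, chr11:60210472-60210721, minus strand: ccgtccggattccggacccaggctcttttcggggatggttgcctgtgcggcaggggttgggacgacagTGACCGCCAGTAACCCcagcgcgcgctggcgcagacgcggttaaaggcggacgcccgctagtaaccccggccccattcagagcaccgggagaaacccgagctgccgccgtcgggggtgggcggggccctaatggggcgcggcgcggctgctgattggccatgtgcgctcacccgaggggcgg

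RefSeq windows that run from 250 bases before to 50 bases after the start were at hand for 7 of the 9 genes, in 11 windows, and matches were sought on both strands. *Abcg1* and *Scd2* had no entry. With at most 2 mismatches, 0 of the 11 windows held a DR4, and 3.02% of all 32851 windows did. With 3 mismatches allowed, *Abca1*, *Rxra* and *Srebf1* each had 1 window with a match, beside 21.9% of all windows. A count of mismatches cannot tell whether LXR binds a match or a window without one, and binding was not tested. The *Abca1* match, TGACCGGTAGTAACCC, began at −67 from the start, and the match before the isoform c start of *Srebf1*, TGACCGCCAGTAACCC, began at −182. The SRE core TCACNCCAC, a site of SREBP, was in 0 of the 11 windows and in 1.24% of all. In 300-base windows on the centre of the Rpb2 peaks near a start, it was in 1 of 8 peaks, which belonged to 6 of these genes, at *Srebf1*, and in 1.01% of 10124 peaks. The AP-1 site TGANTCA was in none of the 11 windows, and PU.1's core GGAAGT was in 1, against 7.81% and 23.8% of all windows. The E-box was in 1 window (*Abca1*, 7.15% of all), the CCAAT box CCAAT in 4 (37.4% of all) and the GC box GGGCGG in 6 (35.7% of all). TATAAA, sought only after the sequences had been read, was found 29 bases before the start of *Abca1* and 32 bases before that of *Mylip*, in 2 of the 11 windows and in 13.6% of all.

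Rpb2 at the starts of the 9 genes spanned a wide range of levels. Levels are given as reads per kb of peak per 1000000 reads of the library (RPKM), so that genes can be set side by side, and values per library follow the order WT female, WT male, KO female, KO male here and below. *Mylip*, which encodes the ubiquitin ligase that removes the LDL receptor, stood highest with 227, 246, 200 and 265. *Abca1*, the transporter that loads cholesterol onto apolipoprotein A-I, followed with 124, 110, 90.6 and 116. The lowest library of *Mylip* lay above the highest of *Abca1*, and the lowest of *Abca1* above every library of the next gene. Their mean levels, 234 and 110, stood at percentiles 99.7 and 98.2 of the peaks within 1000 bp of a start.

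A group of 5 genes filled the middle of the order, and neighbours among them did not differ beyond the spread of the libraries. *Scd2*, a stearoyl-CoA desaturase that makes monounsaturated fatty acids, had 35.04, 43.7, 45.3 and 47.1. *Nr1h2*, which encodes LXRβ, had 18.9, 30.3, 32.4 and 62.0. *Abcg1*, the transporter that passes cholesterol to HDL particles, had 29.1, 23.5, 27.7 and 33.4. Neighbours in this stretch overlapped in range, with 3 of 4 libraries in the stated order each time, though the lowest library of *Scd2* lay above the highest of *Abcg1*. *Srebf2*, the main SREBP of cholesterol synthesis, had 10.2, 17.1, 16.3 and 34.2. *Srebf1*, the main SREBP of fatty acid synthesis, had 16.6, 16.3, 8.80 and 22.2 at its isoform d start. *Rxra*, the shared partner of the LXRs, lay below all of them with 2.11, 3.002, 6.10 and 4.22, and its range lay apart from that of *Srebf1*. The start peaks of *Rxra* and *Srebf2* were called in KO alone. *Nr1h3*, which encodes LXRα, had no Rpb2 peak within 1000 bp of either of its 2 starts, and the nearest peak, assigned to *Acp2*, lay 7617 and 7698 bp away.

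**Figure D1:**
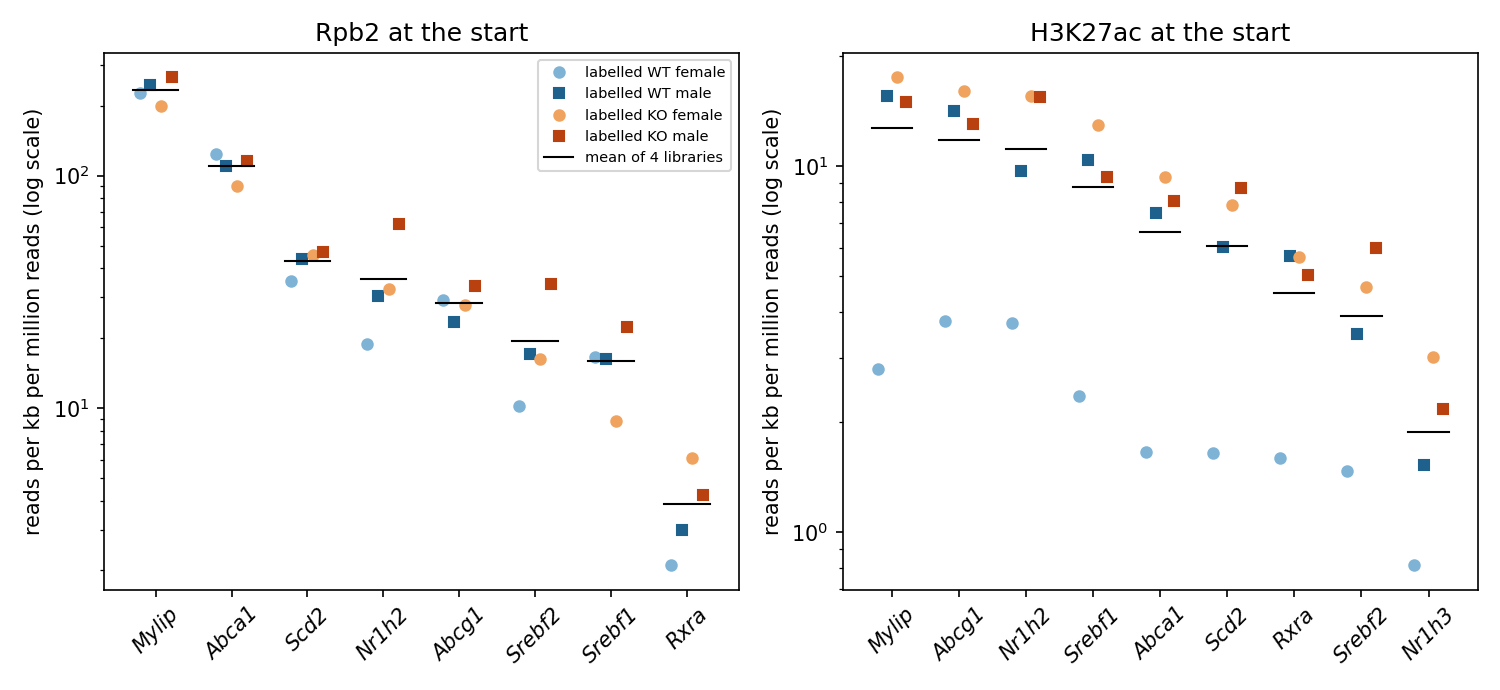
Level at the start of each gene for Rpb2 (left) and H3K27ac (right), in RPKM on a log axis. Points are the 4 libraries by label and lines their mean. For *Srebf1*, Rpb2 is at the isoform d start and H3K27ac at that of isoforms a and b. *Mylip* and *Abca1* lead for Rpb2 with means of 234 and 110, and the H3K27ac library labelled WT female lies lowest at every gene.

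H3K27ac covered a start of all 9 genes, *Nr1h3* included, and ordered them otherwise. *Mylip* had 2.79, 15.5, 17.5 and 15.0 RPKM, *Abcg1* 3.77, 14.1, 16.1 and 13.1, and *Nr1h2* 3.74, 9.73, 15.6 and 15.5. *Srebf1*, at the start of isoforms a and b, had 2.36, 10.4, 12.995 and 9.34, and *Abca1* had 1.65, 7.47, 9.37 and 8.04. The Rpb2 level of *Srebf1* was that of its isoform d start, where H3K27ac had a mean of 5.30 against 8.77, so its places in the 2 orders are for unlike starts. At the low end, *Srebf2* had 1.47, 3.49, 4.67 and 6.00 and *Nr1h3* 0.812, 1.53, 3.004 and 2.17. The library labelled WT female was the lowest at each of the 9 genes, and its lower share of reads in peaks moves with this. The ranges of all neighbours in this order overlapped. All 4 libraries still kept the order of *Srebf1* over *Abca1*, *Scd2* over *Rxra* and *Srebf2* over *Nr1h3*. The other neighbours kept it in 3 of 4 libraries. By mean level, *Mylip* stood at percentile 98.5 of all H3K27ac peaks and *Nr1h3* at 47.6. Among H3K27ac peaks centred within 1000 bp of a start, *Nr1h3* stood at percentile 11.2. The *Mylip* peak was centred farther from its start and has no such value.

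The genes also differed in how much of their surroundings carried the marks. *Mylip* had 25 Rpb2 peaks, at percentile 99.4 of all genes with a peak, and *Abca1* had 18, at percentile 98.7. *Abcg1* had 5, *Rxra* and *Scd2* 4 each, *Srebf1* 2, and *Nr1h2* and *Srebf2* 1 each. For H3K27ac, *Mylip* and *Rxra* had 21 peaks each, *Abca1* 15, *Abcg1* 11, *Scd2* 4, *Srebf1* and *Nr1h3* 3 each, and *Nr1h2* and *Srebf2* 1 each. *Rxra* therefore combined the weakest Rpb2 start that was called with the longest acetylated length, 46.5 kb in all (percentile 99.2), ahead of *Abca1* with 40.6 kb, *Abcg1* with 34.8 kb and *Mylip* with 31.5 kb. Single domains at *Abcg1*, *Abca1* and *Mylip* reached 13.1, 12.8 and 10.1 kb, where the median H3K27ac peak of all genes was 666 bp wide. Peaks are assigned to the nearest start, so distant ones may belong to other genes.

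Most Rpb2 peaks of the group lay in introns, 37 of 60 (61.7%), beside 36.6% of all Rpb2 peaks, and 8 lay at a promoter (13.3% beside 28.6%). *Mylip* and *Abca1* held 16 of the intronic peaks each, *Abcg1* 3, and *Rxra* and *Scd2* 1 each. Both shares therefore rest mainly on *Mylip* and *Abca1*, with 25 and 18 of the 60 peaks. Of the 60, 43 overlapped an H3K27ac peak by at least 1 bp (71.7%, 95% exact binomial interval 58.6 to 82.5%), and 76.6% of all Rpb2 peaks did. Within 1000 bp of a start all 10 overlapped, beside 98.2% of all such peaks, and farther away 33 of 50 did (66.0% beside 63.4%). At *Mylip* 18 of 25 Rpb2 peaks lay in acetylated regions and at *Abca1* 8 of 18, while all peaks of *Abcg1*, *Rxra*, *Scd2*, *Srebf1*, *Srebf2* and *Nr1h2* did. Peaks of 1 gene share its libraries and are not replicates, so these shares are a description.

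*Srebf1* shows how the 2 marks differed between starts of 1 gene. At the isoform d start, the Rpb2 peak at chr11:60222836-60223146 held 46.7, 45.4, 22.003 and 44.5 CPM. At the start of isoforms a and b, the Rpb2 peak at chr11:60220429-60220679 held 12.4, 17.1, 20.4 and 21.8 CPM. The isoform c start had no Rpb2 peak within 1000 bp and the nearest lay 9958 bp away, yet an H3K27ac peak at chr11:60209656-60212233 covered it, as 1 did at each of the other starts. The isoform c peak held 18.6, 15.7, 19.8 and 11.9 CPM of H3K27ac. KO against WT did not pass at any of the 5 peaks, with log2 fold changes of −0.48 ± 0.46 and 0.51 ± 0.61 (SE) for the 2 Rpb2 peaks (edgeR quasi-likelihood, adjusted p of 0.695 and 0.763). The first ran from −1.06 without the KO male library to −0.050 without KO female.

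Whether loss of *Cx3cr1* changed polymerase or acetylation at these genes was asked first with the reads summed over all peaks of a gene. None of the 8 genes with Rpb2 and none of the 9 with H3K27ac passed an adjusted p of 0.05 in edgeR's quasi-likelihood test, and none did in its likelihood ratio test or in DESeq2. Over all genes the same test called 0% of 10206 genes for Rpb2 and 0% of 16938 genes for H3K27ac. Of the 9 genes, 0 had an unadjusted p under 0.05 for either mark, beside 10.8% of all genes for Rpb2 and 6.48% for H3K27ac. WT and KO pools lay fully apart in 3 of 8 genes for Rpb2 and in 3 of 9 for H3K27ac, beside 42.1% and 27.6% of all genes. The median log2 fold change of the group was 0.00 for Rpb2 and 0.15 for H3K27ac, and that of all genes 0.02 and −0.11.

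For the cholesterol exporters and the LDL receptor ligase, no difference in summed level between the genotypes passed with all pools. With n = 2 pools each, this cannot show that the levels were alike. *Abca1* had 557 and 464 CPM of Rpb2 in the WT pools and 412 and 452 in the KO pools, 510 ± 65.6 against 432 ± 28.0 (SD, n = 2 pools each). The pools lay apart, but the log2 fold change of −0.24 ± 0.14 (SE) did not pass (edgeR, adjusted p = 0.558), and it was 0.02 when libraries were scaled to their total reads. *Abcg1* had 153 and 134 in the WT pools and 150 and 181 in the KO pools, with a log2 fold change of 0.20 ± 0.23, with overlapping pools. *Mylip* had 1149 and 1431 in the WT pools and 1351 and 1280 in the KO pools, with a log2 fold change of 0.03 ± 0.10, the smallest standard error of the group. For H3K27ac, *Abca1* had 428 and 590 against 589 and 571, *Abcg1* 382 and 540 against 516 and 487, and *Mylip* 332.6 and 528 against 505 and 451. All 3 log2 fold changes lay between 0.12 and 0.19, and without the weakly enriched library labelled WT female they were −0.02, −0.10 and −0.14. With that library as the only WT pool, *Abca1*, *Abcg1* and *Mylip* passed with log2 fold changes of 0.44, 0.39 and 0.52 (edgeR, adjusted p of 1.43e-06, 7.23e-05 and 1.67e-07).

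The receptors differed in what could be measured. *Nr1h2* had 41.9 and 65.6 CPM of Rpb2 in the WT pools and 66.3 and 103 in the KO pools, with a log2 fold change of 0.64 ± 0.36 (edgeR, adjusted p = 0.532), and 0.33 without the library labelled WT female. With any 1 pool left out it ran from 0.30 without KO male to 0.999 without WT male. Its pools lay apart by less than 1 CPM, 65.6 against 66.3. *Nr1h2* H3K27ac was 35.6 and 28.1 in the WT pools and 40.6 and 43.3 in the KO pools, with a log2 fold change of 0.40 ± 0.28 (adjusted p = 0.943). *Rxra* had 83.1 and 77.8 CPM of Rpb2 in the WT pools and 93.5 and 64.1 in the KO pools, with a log2 fold change of −0.02 ± 0.32 with overlapping pools. For H3K27ac, *Rxra* had 455 and 501 against 410 and 455, and *Nr1h3* 18.9 and 10.8 against 13.3 and 9.96. The log2 fold changes were −0.15 ± 0.30 and −0.35 ± 0.67, and that of *Nr1h3* was 0.11 without the library labelled WT female.

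Of the SREBP arm, *Scd2* and *Srebf1* had log2 fold changes of opposite sign for the 2 marks, and none of them passed with all pools. *Scd2* had 189 and 173 CPM of Rpb2 in the WT pools and 144 and 141 in the KO pools, with a log2 fold change of −0.35 ± 0.22 (edgeR, adjusted p = 0.594). Its H3K27ac was 85.8 and 93.1 in the WT pools and 109 and 131 in the KO pools, with a log2 fold change of 0.42 ± 0.24 (adjusted p = 0.887). The H3K27ac value was 0.37 without the library labelled WT female, and 0.48 with that library as the only WT pool. For both marks the pools of the genotypes lay apart. *Srebf2* had 22.9 and 37.6 CPM of Rpb2 in the WT pools and 33.9 and 57.7 in the KO pools, with overlapping pools. Its log2 fold change was 0.58 ± 0.46, and 0.25 without the library labelled WT female. With any 1 pool left out it ran from 0.16 to 0.99. The value rests on 1 peak, called in KO alone, so its direction lends no support to a difference. *Srebf1* had 58.0 and 60.5 in the WT pools and 43.2 and 68.6 in the KO pools, with a log2 fold change of −0.10 ± 0.37. H3K27ac log2 fold changes were 0.26 ± 0.56 for *Srebf2* and 0.10 ± 0.23 for *Srebf1*. Scaling to total reads moved the median of all genes by 0.25 for Rpb2 and 0.74 for H3K27ac on the log2 scale, so the signs above are relative to the reads in peaks.

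**Figure D2:**
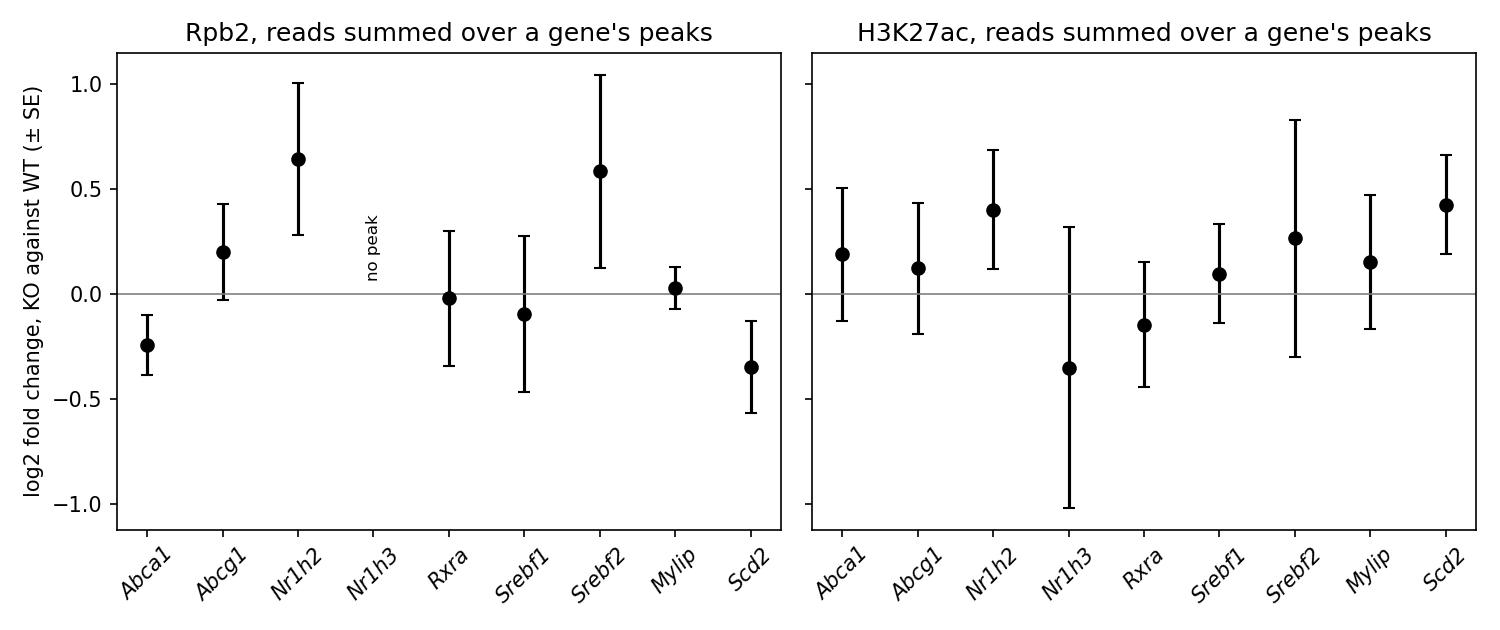
Log2 fold change of KO against WT with its SE for the reads summed over the peaks of each gene, Rpb2 on the left and H3K27ac on the right (edgeR, n = 2 pools per genotype). No gene passed an adjusted p of 0.05, and *Nr1h3* had no Rpb2 peak; the values run from −0.35 at *Scd2* to 0.64 at *Nr1h2* for Rpb2.

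Single peaks were then tested, since a gene's sum can hide peaks that move apart. Of the 60 Rpb2 peaks, 0 passed an adjusted p of 0.05, beside 0.00749% of all 26706, and 13 (21.7%) had an unadjusted p under 0.05, beside 12.2% of all. Of the 80 H3K27ac peaks, 0 passed, beside 0.0233% of 55798 tested, and 3 had an unadjusted p under 0.05 (3.75%), beside 4.95% of all. The pools lay apart in 33 of 60 Rpb2 peaks and 26 of 80 H3K27ac peaks, beside 47.4% and 27.4% of all. The lowest adjusted p was 0.198 for Rpb2 and 0.811 for H3K27ac.

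For Rpb2, the list in which a peak was found fixes much of its direction. Each peak is marked in the deposited table as from the WT list, the KO list or both, and of the 60 Rpb2 peaks 15 came from both lists, 14 (23.3%, beside 13.7% of all) from WT alone and 31 (51.7%, beside 53.0%) from KO alone. Median log2 fold changes were −0.12, −0.94 and 0.70 in these 3 sets, and over all Rpb2 peaks −0.17, −0.89 and 0.51. Of the 13 peaks with an unadjusted p under 0.05, 6 were on the WT list and lower in KO, 3 were on the KO list and higher, and 4 were on both, of which 3 were lower and 1 higher. The direction of a peak from 1 list therefore lends no support to a difference. For H3K27ac, the medians of the group were 0.07 (both lists), −2.97 (WT list) and −0.18 (KO list). Over all H3K27ac peaks they were 0.04, −6.78 and 0.52, so the KO-list peaks of the group did not lean upward.

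**Figure D3:**
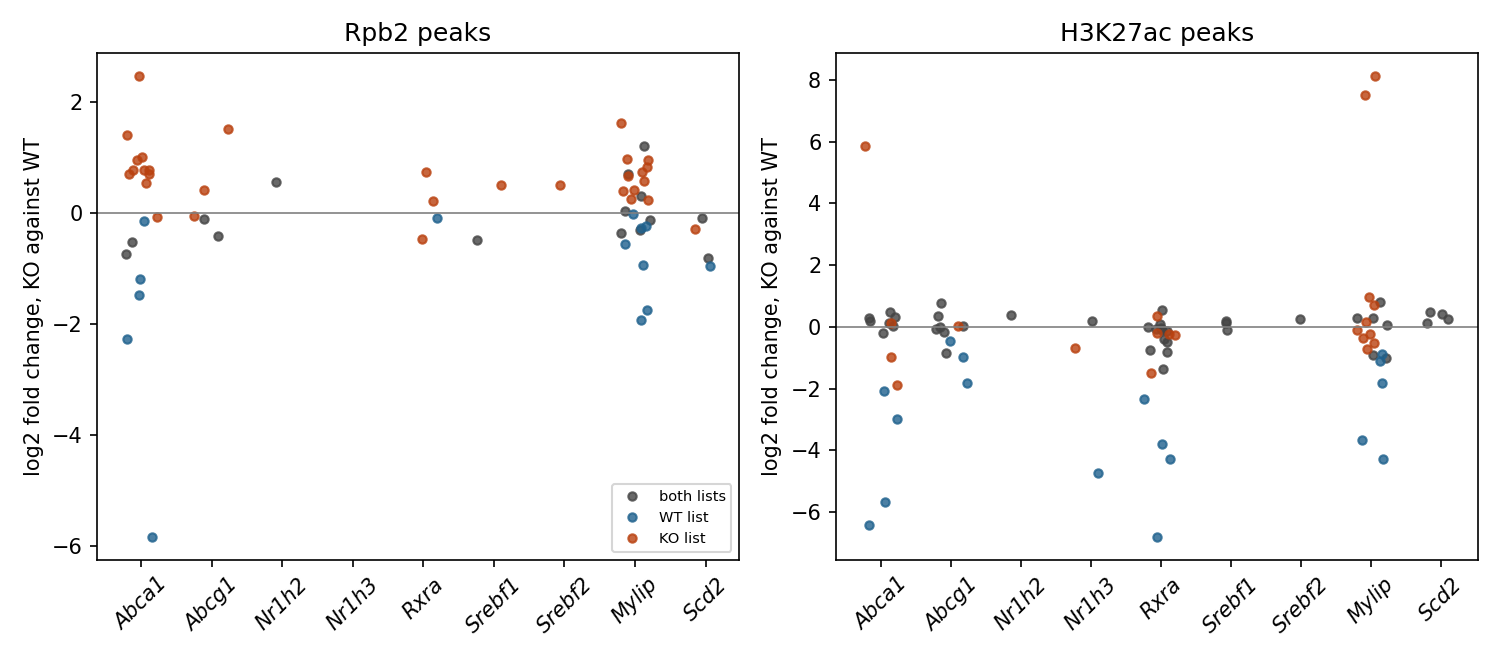
Log2 fold change of KO against WT for each Rpb2 peak (left, 60 peaks) and H3K27ac peak (right, 80 peaks) of the 9 genes, coloured by the list in which the peak was called. Points are spread sideways for sight only; peaks of the WT list lie below 0 for Rpb2, with a median of −0.94, and those of the KO list mostly above it, with a median of 0.70.

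At the starts of *Mylip* and *Abca1*, both of which were called in both lists, Rpb2 was lower in each KO pool than in each WT pool on the scale of reads in peaks. The *Mylip* start at chr13:45389660-45389887, at the promoter, held 467 and 501 CPM in the WT pools and 365 and 387 in the KO pools. Its means were 484 ± 23.8 and 376 ± 15.6 (SD, n = 2 pools each), a log2 fold change of −0.36 ± 0.16 (SE; edgeR, adjusted p = 0.397). The *Abca1* start at chr4:53159711-53159963 held 284 and 250 in the WT pools and 184 and 188 in the KO pools, 267 ± 24.3 against 186 ± 3.10, a log2 fold change of −0.52 ± 0.20 (adjusted p = 0.334). The size of the differences depended on the scale. On the RPKM scale of the library totals, the pools overlapped at both starts. The log2 fold changes scaled to total reads were −0.03 and −0.18. The median of all Rpb2 peaks from both lists was −0.17 as well. The share of a gene's Rpb2 reads that lay near its start was 55.9% in WT and 52.9% in KO for *Abca1*, and 36.9% and 29.4% for *Mylip*. The median difference over 3188 genes with both kinds of peak was −2.99 percentage points, against −2.98 for *Abca1* and −7.49 for *Mylip*, at percentiles 50.1 and 32.2. Over peaks of both lists alone, in 995 genes, the median was −0.061 percentage points, and *Abca1* turned to 1.26 and *Mylip* stood at −7.97, at percentiles 58.7 and 17.3.

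Inside *Mylip*, neighbouring Rpb2 peaks of intron 2 went in opposite directions. The peak at chr13:45395492-45395724, called in KO alone, held 20.99 and 24.4 CPM in the WT pools and 70.0 and 70.2 in the KO pools, with a log2 fold change of 1.62 ± 0.39 (edgeR quasi-likelihood, adjusted p = 0.198). The next peak, 118 bp on at chr13:45395842-45396232 and called in WT alone, held 79.3 and 110 in the WT pools and 55.1 and 44.1 in the KO pools, with a log2 fold change of −0.93 ± 0.33 (adjusted p = 0.289). Taken as 1 region, the pair held 100 and 134 in the WT pools and 125 and 114 in the KO pools, with overlapping pools and a log2 ratio of means of 0.03. Another adjacent pair of *Mylip*, at chr13:45402855-45403112 (KO list) and chr13:45403211-45403450 (WT list), held 28.0 and 57.3 in the WT pools and 36.7 and 17.2 in the KO pools, also overlapping, with a ratio of −0.66. A WT-list peak over exon 4, at chr13:45405797-45406034, held 17.9 and 51.4 in the WT pools and 10.0 and 8.19 in the KO pools, with a log2 fold change of −1.92 ± 0.65 (edgeR, adjusted p = 0.276). Without the library labelled WT female it was −2.50 and passed (adjusted p = 0.00557), without the WT male library it was −0.96 (0.480), and without a KO pool the adjusted p was 0.801 or 0.930. Across the 7 *Mylip* peaks of both lists the log2 fold changes ran from −0.36 to 1.20.

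In *Abca1* and *Abcg1*, the peaks with the lowest p values lay in introns, and that of *Abca1* held few reads. The *Abca1* peak at chr4:53098750-53099083 (intron 7, WT list) held 27 and 16 reads in the WT pools and 2 and 0 in the KO pools. The ratio of KO to WT, each per read of its libraries, was 0.0193, with a 95% exact interval of 0.00227 to 0.0743 that covers counting error only. The *Abcg1* peak at chr17:31074759-31075033 (intron 2, KO list) held 7.78 and 16.5 CPM in the WT pools and 31.1 and 39.0 in the KO pools, with a log2 fold change of 1.51 ± 0.58 (adjusted p = 0.333), which ran from 1.07 to 2.17 with 1 pool left out. The *Abca1* peak and the *Mylip* peak of the KO list did not pass in edgeR's quasi-likelihood test (adjusted p = 0.198 for both), but they did in its likelihood ratio test (adjusted p of 3.96e-04 and 0.00816) and in DESeq2 (0.00377 and 0.00316). They also passed without the library labelled WT female (0.00428 and 0.0485) and without the WT male library (6.44e-04 and 0.0282). They did not pass without the KO female library (0.754 and 0.759), without the KO male library (0.896 for both) or with the sex label as a block (0.394 and 0.341).

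**Figure D4:**
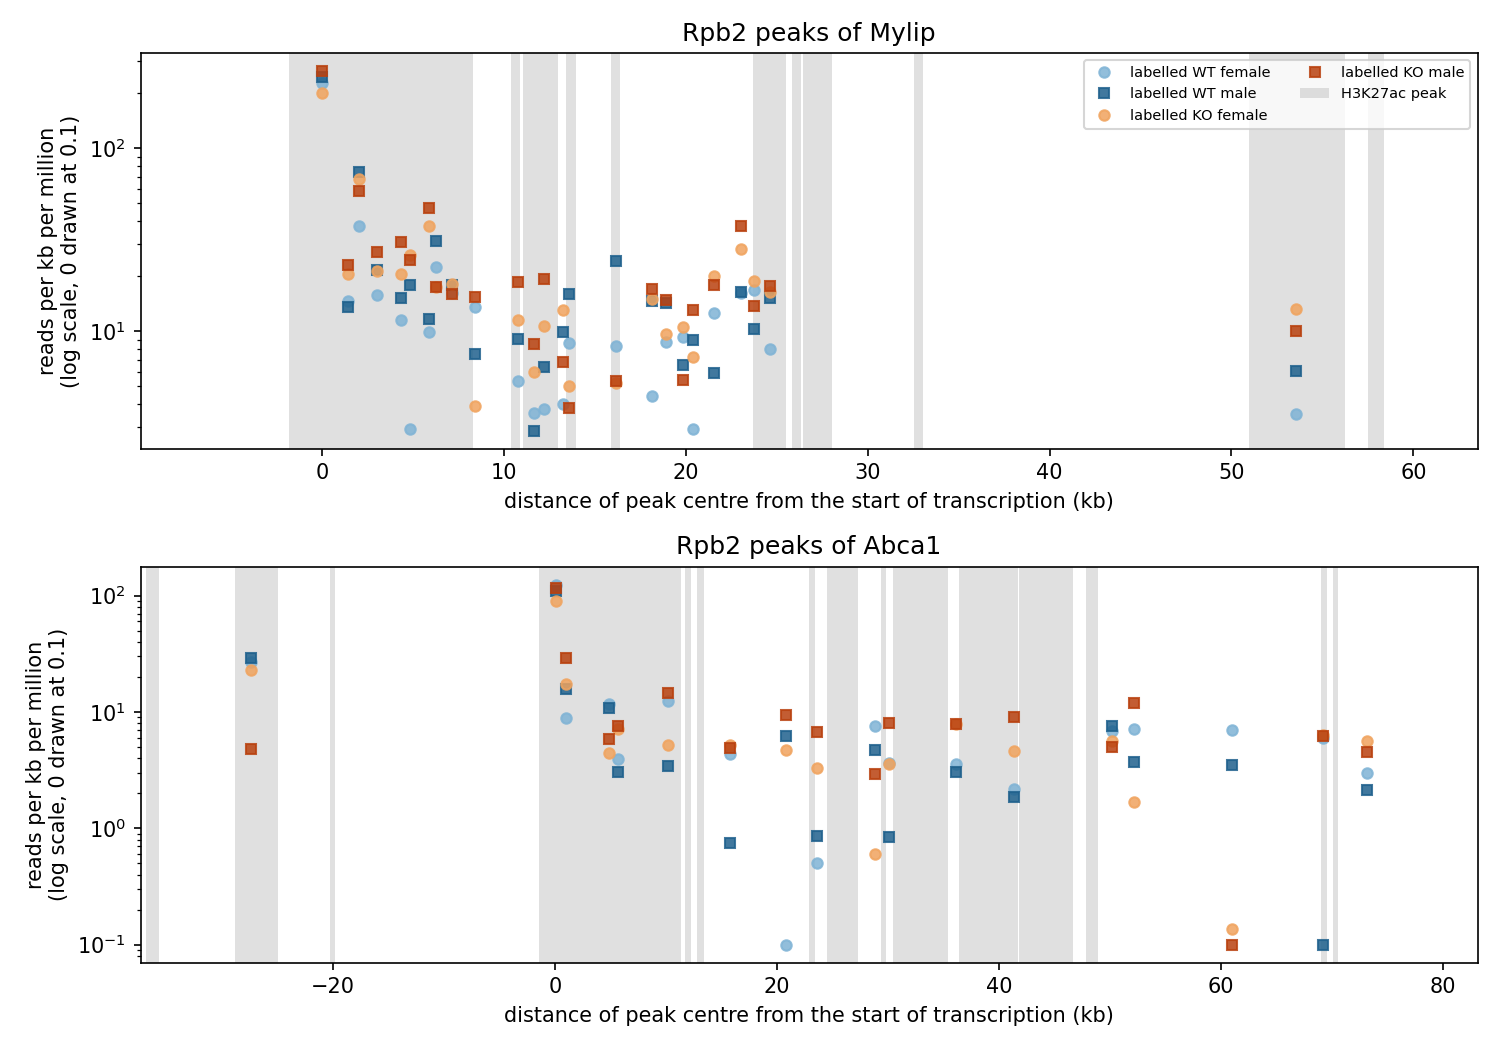
Level of each Rpb2 peak of *Mylip* (top, 25 peaks) and *Abca1* (bottom, 18 peaks) in the 4 libraries against the distance of its centre from the start, in RPKM on a log axis, with H3K27ac peaks of the gene as grey bands. The start stands highest in both genes, at means of 234 and 110. In CPM, the KO pools lay above the WT pools at 9 peaks of *Mylip* and 5 of *Abca1*, and below them at 5 and 6. The pools lay apart at 47.4% of all Rpb2 peaks.

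The 5 H3K27ac peaks of the group with the lowest p values lay away from the starts. So did most of the 80 peaks, since each gene had 1 peak near a start and *Srebf1* had 3. The *Rxra* peak at chr2:27720211-27721588, in intron 1 of a shorter transcript, held 15.3 and 13.3 CPM in the WT pools and 4.03 and 6.98 in the KO pools, with a log2 fold change of −1.37 ± 0.58 (edgeR, adjusted p = 0.811). Intergenic peaks 36.8 kb before the start of *Abcg1* (chr17:31019654-31022229) and 17.4 kb before that of *Mylip* (chr13:45371801-45372953) held 15.5 and 37.2 against 15.1 and 14.9, and 13.6 and 23.02 against 9.65 and 8.51. In both the KO pools lay below the WT pools, at *Abcg1* by less than 1 CPM, with log2 fold changes of −0.83 ± 0.38 and −1.02 ± 0.47. Without the library labelled WT female they were −1.32 (edgeR, adjusted p = 0.0246) and −1.35 (0.113), and without the WT male library −0.052 (0.977) and −0.58 (0.594). An *Rxra* peak at chr2:27761578-27765574, over the transcript end, went the other way with 31.9 and 34.8 against 47.0 and 49.9 (0.54 ± 0.31, adjusted p = 0.811). A WT-list peak of *Rxra* at chr2:27634428-27634928 held 46, 0, 0 and 8 reads, nearly all of them in the library labelled WT female, and passed with that library as the only WT pool (edgeR, adjusted p = 0.00398).

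No large acetylated domain passed with all 4 pools. The *Abca1* domain at chr4:53148565-53161325 held 126 and 158 CPM of H3K27ac in the WT pools and 187 and 170 in the KO pools, and the *Mylip* domain at chr13:45387952-45398064 held 169 and 261 against 276 and 252. The *Abcg1* start lay in a domain at chr17:31056682-31062437 with 130 and 135 against 145 and 125, a log2 fold change of 0.03 ± 0.30. A wider *Abcg1* domain in intron 2, away from the start, at chr17:31069097-31082215, held 150.6 and 223 against 243 and 237. The log2 fold changes of *Abca1*, *Mylip* and this intronic domain were 0.33, 0.30 and 0.36, with SEs of 0.30 to 0.32, and 0.17, 0.01 and 0.10 without the library labelled WT female. With that library as the only WT pool, they passed (adjusted p of 0.00982, 2.63e-05 and 2.77e-05).

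Other genes of the same pathways were followed in 6 lists. For Rpb2, 8 of 10 LXR partners and cofactors, 4 of 13 other LXR targets, 8 of 9 genes of SREBP processing, 13 of 23 of sterol synthesis and uptake, 10 of 15 of fatty acid synthesis and 10 of 12 of cholesterol handling were measured. None passed for either mark in edgeR's test, and at an unadjusted p under 0.05 the counts were 1, 0, 1, 0, 0 and 2 for Rpb2 and 0, 0, 1, 1, 0 and 1 for H3K27ac, where 10, 12, 8, 19, 14 and 12 genes were measured. Over all genes the shares at that p were 10.8% and 6.48%. Of the median log2 fold changes, those of the 6 lists ran from −0.18 to 0.02 for Rpb2, where all genes stood at 0.02, and from −0.28 to 0.28 for H3K27ac, where all genes stood at −0.11. *Nrip1*, a nuclear receptor corepressor, had 852 and 899 CPM of Rpb2 in the WT pools and 748 and 706 in the KO pools (−0.27 ± 0.11, adjusted p = 0.369).

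Among LXR targets, *Mertk*, a receptor for the uptake of dying cells, had 1756 and 1593 CPM of Rpb2 in the WT pools and 1833 and 1767 in the KO pools (0.10 ± 0.08). *Scd1*, a desaturase, had 54.9 and 21.7 against 11.9 and 24.2 (−1.10 ± 0.58). For H3K27ac, the sterol transporters *Abcg5* and *Abcg8* each had 35 reads, all of them from the library labelled WT female, and 0 elsewhere. Of the SREBP processing genes, *Scap*, the sterol-sensing escort of SREBP, had 2 and 0 Rpb2 reads in the WT pools and 53 and 28 in the KO pools (adjusted p = 0.262). *Mbtps2*, the protease that releases SREBP from the membrane, had 36.7 and 37.1 CPM of H3K27ac against 23.4 and 18.5 (−0.82 ± 0.32, adjusted p = 0.592).

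In sterol synthesis, *Fdps* had 8.39 and 1.27 CPM of Rpb2 in the WT pools and 10.7 and 22.6 in the KO pools (1.80 ± 0.90), and *Cyp51* 12.2 and 7.65 against 22.2 and 22.6 (1.18 ± 0.68). *Dhcr7*, which makes cholesterol from its last precursor, had 26.2 and 20.6 CPM of H3K27ac against 41.1 and 45.8 (0.90 ± 0.30, adjusted p = 0.430), and *Mvk* had 32 reads, all from the library labelled WT female, and 0 elsewhere. *Acly*, the source of cytosolic acetyl-CoA, had 130 and 133 CPM of Rpb2 against 146 and 194 (0.36 ± 0.24), and for H3K27ac 38.9 and 21.1 against 42.9 and 42.2 (0.51 ± 0.32). *Fasn*, the fatty acid synthase, had 135 and 82.9 CPM of Rpb2 against 70.9 and 94.0 (−0.40 ± 0.31), and *Gpam* 62.6 and 54.5 CPM of H3K27ac against 48.8 and 41.2 (−0.38 ± 0.25). Of cholesterol handling, the lysosomal exporter *Npc1* had 155 and 153 CPM of Rpb2 against 123 and 79.9 (−0.59 ± 0.26, adjusted p = 0.414), and *Stard3*, which carries sterol between membranes, 69.4 and 44.6 against 105 and 94.0 (0.81 ± 0.33). *Soat1*, which esterifies cholesterol for storage, had 44.5 and 65.7 CPM of H3K27ac against 80.2 and 91.9 (0.64 ± 0.25, adjusted p = 0.616), and *Abca7* 38.1 and 49.9 against 55.1 and 63.2 (0.42 ± 0.25). The pools lay apart in many of these genes, but none of the differences passed the test across all genes.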

How the data were processed

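Microglia were profiled by ChIP-seq. Per the study's methods, the authors mapped 51-nt single-end reads to mm10 with Bowtie2, kept unique reads, called peaks with HOMER and kept the reproducible ones; that WT and KO lists were merged is read from the list named for each peak in the deposited tables. The deposited values are raw counts of reads, 1 per peak and library, per the file headers; versions are not given in the sources used here. The number of per-sample columns left unused was 0. Coordinates are those of the deposited tables, and sequences and starts come from RefSeq (GRCm38.p6, the same build).

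Counts were tested over all peaks, and summed per gene over all genes, with edgeR 4.0.16 in R 4.3.3 (glmQLFit, glmQLFTest, TMM, genotype alone, at least 4 reads on average in 1 genotype, Benjamini-Hochberg, adjusted p of 0.05). The filter removed 0 Rpb2 peaks. CPM are TMM-scaled to the reads in peaks, and RPKM use the library totals. A peak needs about 3 reads to be told from 0, which is 0.0677 to 0.289 per 1000000 reads of a library. An exact permutation test of 2 pools against 2 cannot give a two-sided p below 0.333. Pools of 1 sex label are different mice, so the label pairs no samples, and the pools of the genotypes deviated together with correlations of −0.01 and 0.05 only. Peaks named were, for each gene and mark, the highest at the start and the highest of all, and over the 9 genes together the 5 per mark with the lowest p; from the lists, the 2 genes with the lowest p per list and mark, of which some are not reported here. Srebf1's other starts and the second peaks of neighbouring pairs were added after their values were seen. The members and lists were chosen with earlier results of these data known. Alternatives were other scalings and filters, DESeq2 1.42.0, the likelihood ratio test, the sex label as a block, other sets of peaks and each pool left out. Steps were tested on simulated data. Python 3.11.15 with pandas 2.3.3, SciPy 1.17.1 and pysam 0.24.0 was used.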

Additional observations from a re-analysis of the deposited data

How the results depend on the processing

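No member passed in edgeR's quasi-likelihood test, but 18 of 621 alternative values did, 14 of them with a WT pool left out, where the lone pool was assumed to vary like the others, and 55 changed sign. The cause was not tested. H3K27ac rests on 1 well-enriched WT pool, and depth limits peaks under about 10 reads.

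Over all features, Rpb2 peaks called (2) became 1 with loess offsets, 30 with 10 reads in every library, 1022 with DESeq2, 924 with the likelihood ratio test, 0 near a start, 8 in both lists and 4 with the sex label as a replicate block. Leaving out a pool gave 0 to 2210. Rpb2 genes called (0) became 28 with total reads, 6 with 10 reads, 28 with DESeq2, 164 with the likelihood ratio test and 43 with the block, and 0 to 264 without a pool. H3K27ac peaks called (13) became 0 with total reads, 1 with 10 reads, 240 with DESeq2, 0 near a start and 0 in both lists, 12 with the block and 2 to 8157 without a pool. H3K27ac genes called (0) became 8 with total reads, 318 with loess, 208 with DESeq2, 100 with the likelihood ratio test and 140 with the block, and 88 to 3807 without a pool. The block changed no member's call; every sample correlating with its own number could not be tested with 2 pairs.

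Some log2 fold changes changed sign. With total reads, these were the starts of Abcg1 (0.21) and Scd2 (0.23), the Rxra top peak (0.17) and the sums of Abca1 (0.0232), Rxra (0.20) and Srebf1 (0.19) for Rpb2, and for H3K27ac the Rxra start (0.56) and top peak (0.47) and the sums of Nr1h3 (0.60) and Rxra (0.53). With loess, they were the Rpb2 starts of Abcg1 (0.0112), Rxra (−0.14) and Scd2 (0.0436), the Rpb2 sums of Rxra (0.0079) and Mylip (−0.0692), the H3K27ac start of Abcg1 (−0.17) and its sum (−0.0232). With 10 reads in every library, they were the Rpb2 starts of Abcg1 (0.0201) and Scd2 (0.0480), the Rxra top peak (0.0478) and sum (0.0023), and the H3K27ac start of Abcg1 (−0.0349). Near starts alone, the Rpb2 starts of Abcg1 (0.0125) and Scd2 (0.0425), the Rpb2 sums of Rxra (0.87), Mylip (−0.22) and Scd2 (0.0549) and the H3K27ac sum of Nr1h3 (0.15) did so. In both lists, the Rpb2 starts of Abcg1 (0.0483) and Scd2 (0.0826) and the H3K27ac start of Abcg1 (−0.0287) did, and the latter was −0.0350 with DESeq2 size factors and −0.0349 with DESeq2.

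Leaving out 1 pool moved the Rpb2 starts of Abcg1 from −0.26 to 0.0378 and Scd2 from −0.24 to 0.0828, the Rxra top peak from −1.05 to 0.47, and the Rpb2 sums of Rxra from −0.33 to 0.22, Mylip from −0.14 to 0.19 and Srebf1 from −0.46 to 0.21. For H3K27ac it moved the starts of Abcg1 from −0.0847 to 0.13, Nr1h3 from −0.23 to 0.70, Srebf1 from −0.0228 to 0.37 and Srebf2 from −0.0290 to 0.56, the Rxra top peak from −0.31 to 0.17 and its WT-list peak from −8.61 to 4.82. The H3K27ac sums ran from −0.0211 to 0.44 (Abca1), −0.10 to 0.39 (Abcg1), −0.70 to 0.11 (Nr1h3) and −0.14 to 0.52 (Mylip). Overlap by at least 50% of the Rpb2 peak was 70.0%, the median percentile of Rpb2 starts was 71.1 and 70.3 when scaled to reads in peaks, and genes with a DR4 were 0 with 1 mismatch and 3 with 3.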
